A study of Mus musculus with 8 samples.

Results

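Broad accessible regions are the rows of the deposited ATAC-seq table whose end minus start is 1500 bp or more. They number 877 of 128057 regions (0.685%), and all 877 passed the filter on low counts. Each was placed in 1 of 3 classes by the protein-coding genes of the mm10 assembly. 624 (71.2% of the broad regions) overlapped the 1000 bp on either side of an annotated gene end, start or termination alike, 176 (20.1%) lay in a gene body, 76 (8.67%) lay between genes and 1 lay on an unplaced contig. The cells were type 1 conventional dendritic cells (cDC1s) that had been sorted out of wild-type mice bearing tumours of B16-OVA, a melanoma line that makes ovalbumin as a test antigen. 4 libraries came from tumours 7 days after inoculation and 4 from tumours 21 days after inoculation, and both groups share the genotype, the tumour line and the sort. The sources used here give no age, sex or strain of the mice. Whether the 4 libraries of a group derive from different animals or from pools is not stated, so a p-value here measures the spread between libraries, which may be technical.

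cDC1s capture dying cells and present their antigens to CD8 T cells, and a maturing cDC1 leaves the tumour for the draining lymph node. In ATAC-seq a transposase cuts open DNA, so the count in a region reports how accessible it is. Short open intervals are typical of single enhancers, whereas wide ones are typical of CpG-rich promoters and of genes that are transcribed heavily, where polymerase also travels some way past the end of the transcript before it is released. Counts are given as CPM, the usual depth-scaled unit, here after TMM scaling of each library's counts in regions, as mean ± SD with n = 4 per day. Differences are log2 fold changes of day 21 against day 7 ± SE, with Benjamini-Hochberg adjusted p-values computed by edgeR (quasi-likelihood) over all 121865 tested regions, and 0.05 was the threshold. In sorted bulk cells, fewer cells with an open region and a less open region in each cell cannot be told apart.

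Most broad regions lay over promoters. 556 of 877 (63.4%) contained a transcription start listed in the RefSeq promoter table of GRCm38.p6, against 7.79% of all tested regions. Their 779 start windows, which run from 250 bp before to 50 bp after a start and belong to 618 genes, held a median of 29 CpG dinucleotides and 68% G and C. The median over all 21263 listed windows was 13 CpG and 56.3%, and in tested regions under 1500 bp it was 21 CpG and 61.7%. 4 of these windows are printed 5′ to 3′ with each CpG in capitals, because they stand for the range of behaviour at broad promoters: the pair with the largest losses (Foxp4 and Tox2), the largest gain (Jag2) and one of the most open promoters, with little change (Sp1). They lie at chr17:47924583-47924882 on the minus strand (Foxp4, a forkhead transcription factor), chr2:163202877-163203176 on the plus strand (Tox2, an HMG-box transcription factor), chr12:112929446-112929745 on the minus strand (Jag2, a Notch ligand) and chr15:102406066-102406365 on the plus strand (Sp1, a transcription factor that binds GC boxes).
Foxp4: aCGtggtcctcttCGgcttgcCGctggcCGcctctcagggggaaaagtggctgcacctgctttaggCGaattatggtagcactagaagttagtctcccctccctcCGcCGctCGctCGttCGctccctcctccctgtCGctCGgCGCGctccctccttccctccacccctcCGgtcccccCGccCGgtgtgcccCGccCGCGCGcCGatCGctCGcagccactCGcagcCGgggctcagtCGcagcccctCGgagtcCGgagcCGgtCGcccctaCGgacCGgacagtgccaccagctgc
Tox2: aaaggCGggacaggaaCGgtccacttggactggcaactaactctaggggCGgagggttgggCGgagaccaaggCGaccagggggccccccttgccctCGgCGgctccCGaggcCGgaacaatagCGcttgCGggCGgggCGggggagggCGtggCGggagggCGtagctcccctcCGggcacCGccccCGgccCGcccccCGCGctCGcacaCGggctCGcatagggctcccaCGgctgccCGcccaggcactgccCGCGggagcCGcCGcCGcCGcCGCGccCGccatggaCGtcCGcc
Jag2: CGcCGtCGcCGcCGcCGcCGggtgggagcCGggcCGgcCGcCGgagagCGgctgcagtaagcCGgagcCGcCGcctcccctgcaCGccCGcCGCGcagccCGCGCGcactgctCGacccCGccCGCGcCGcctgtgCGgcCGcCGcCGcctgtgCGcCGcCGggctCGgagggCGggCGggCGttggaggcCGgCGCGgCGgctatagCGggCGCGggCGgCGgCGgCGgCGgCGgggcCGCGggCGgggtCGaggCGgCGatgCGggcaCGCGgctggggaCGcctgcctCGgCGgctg
Sp1: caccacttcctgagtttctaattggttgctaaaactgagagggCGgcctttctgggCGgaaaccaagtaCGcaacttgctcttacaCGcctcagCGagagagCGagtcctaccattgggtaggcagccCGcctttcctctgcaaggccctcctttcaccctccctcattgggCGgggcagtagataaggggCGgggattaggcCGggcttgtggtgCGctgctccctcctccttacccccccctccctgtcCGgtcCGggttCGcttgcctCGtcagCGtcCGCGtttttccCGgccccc

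The 4 windows hold 33, 38, 63 and 19 CpG in the order printed. 4 motifs were searched for on both strands: AP-1 (TGANTCA), the cyclic AMP response element (TGACGTCA), an ETS core (GGAAGT) and an interferon-stimulated response element core (GAAANNGAA). The ETS core was found in 21.6% of windows in broad regions and in 24.8% of all windows, and of the 4 printed it was found in the Sp1 window alone. AP-1 was found in 3.59% against 6.99% of all windows, the cyclic AMP response element in 2.31% against 2.23%, and the interferon element in 5.13% against 8.15%. In the windows of tested regions under 1500 bp the 4 shares were higher than in broad regions: 30.3% for the ETS core, 4.80% for AP-1, 3.40% for the cyclic AMP response element and 7.15% for the interferon element. The 64 windows in broad regions that rose by day 21 had a median of 24 CpG and the 211 in broad regions that fell had 29.

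Library totals ran from 9440223 to 16063736 counts at day 7 and from 14021151 to 27737040 at day 21, and no pair of libraries of a day agreed within sampling noise. Of 10 cDC1 markers, 9 had counts at their gene ends and Itgae had none, with sums of 356 to 386 CPM at day 7 and 385 to 397 at day 21. Summed macrophage and monocyte markers (0 of 9 at 0) ran from 53.7 to 58.9 CPM at day 7 and from 60.0 to 69.1 at day 21, plasmacytoid dendritic cell markers (1 of 4 at 0) from 72.7 to 79.0 and 66.2 to 69.8, and stromal markers (1 of 5 at 0) from 10.4 to 13.7 and 8.78 to 9.67. These 3 sums did not overlap between the days, and their part in the results was not tested. The sums of T and NK cell (2 of 10 at 0), B cell (2 of 5), neutrophil (3 of 5), cDC2 (0 of 5) and melanoma markers (1 of 6, Tyr) overlapped. The T and NK cell sum was mostly Cd3d (25.4 and 23.3 CPM) and Klrb1c (14.0 and 20.2), and the other 6 detected genes had lower means at day 21, such as Cd2 (5.56 and 3.22) and Prf1 (3.32 and 1.62). Of the 27 tested regions at or in T and NK cell genes 1 was higher (3.70%, against 9.5% of all tested regions) and 9 were lower (33.3%, against 9.86%), and their part in the results was not tested either.

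The broad regions were strongly open and changed little. Their median level was 43.0 CPM, against 3.31 CPM over all tested regions, and per kb of width it was 25.2 against 8.45 CPM. The median size of the change, whatever its sign, was 0.14 on the log2 scale, against 0.27 over all tested regions. 96 broad regions (10.9%) were higher at day 21, where 9.5% of all tested regions were, and 187 (21.3%) were lower, where 9.86% were. 594 did not pass. 79 of the 96 gains and 176 of the 187 losses were smaller than 1.5-fold, and 78 of the gains and 140 of the losses showed no overlap between days. In all, 266 broad regions (30.3%) showed none, against 19.8% of all tested regions. 10 broad regions (1.14%) rose by 2-fold or more, against 1.6% of all tested regions, and 2 (0.228%) fell by as much, against 3.76%. Among the 3342 regions under 1500 bp whose level reached the broad median, 10.8% were higher and 26.2% lower, with 1 gain and 0 losses of 2-fold. Their median size of change was 0.137, and 35.8% showed no overlap between days. The small size of the changes was thus shared by narrower regions of high level and was not particular to broad ones.

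**Figure D1:**
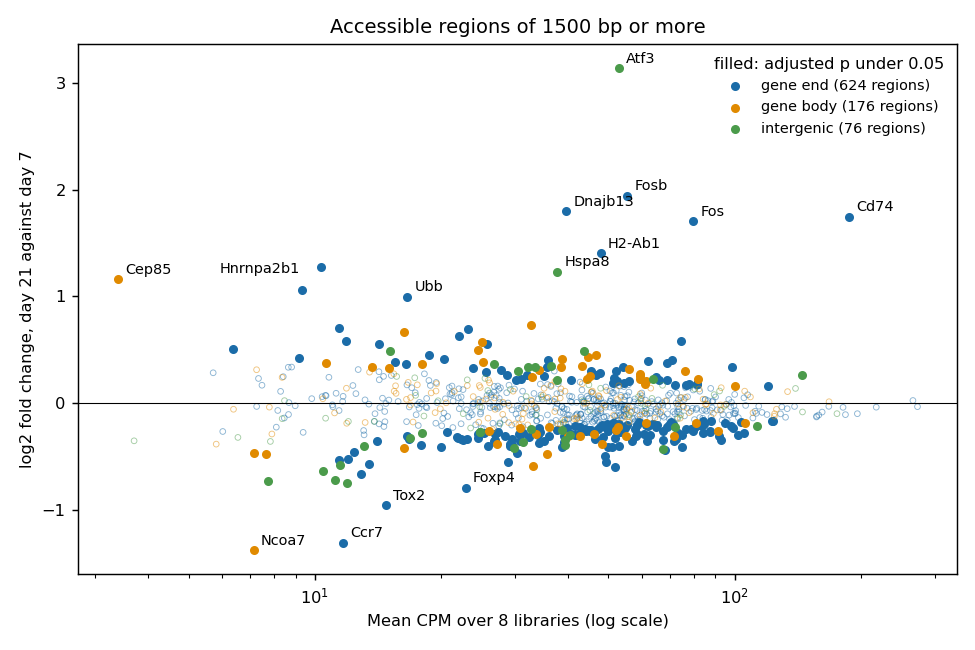
Each point is 1 broad region, placed by its mean CPM over the 8 libraries (log scale) and its log2 fold change of day 21 against day 7, coloured by class; filled points had an adjusted p under 0.05 and the contig is left out. Most points sit between −0.37 and 0.34, while a few named gains reach from 1.00 to 3.14 and Ncoa7 and Ccr7 stand lowest.

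**Figure D2:**
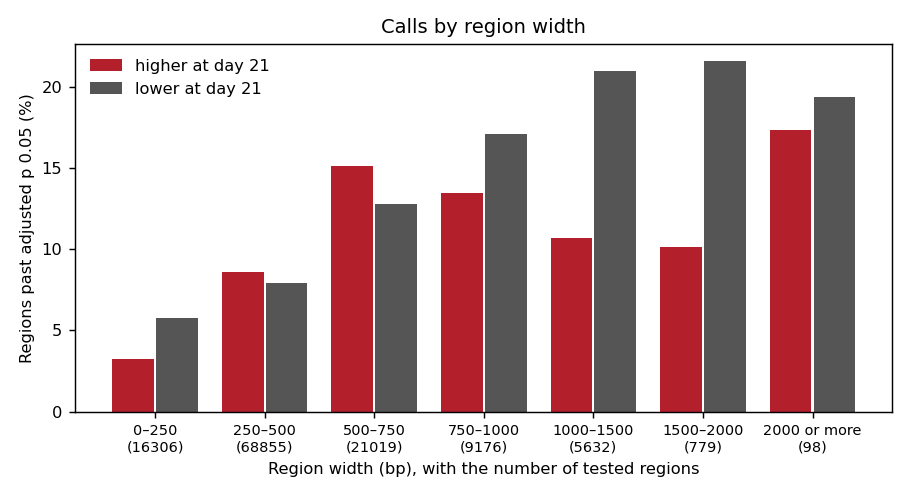
Bars give the percentage of tested regions that passed the threshold as higher or lower at day 21, by region width in bp, with the number of regions under each bin. Losses go from 5.75% of regions under 250 bp to 21.6% of those from 1500 to under 2000 bp, while gains are at most 17.3%, in the 98 regions of 2000 bp or more. Between those 2 bins of losses the median level also goes from 1.02 to 42.0 CPM. The median size of change goes from 0.37 to 0.14 and losses of 2-fold from 4.83% to 0.257%. The bars therefore do not separate width from level.

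By class, losses outnumbered gains at gene ends in the fit with all libraries and with each library left out. At gene ends 56 broad regions were higher and 143 lower, 8.97% and 22.9% of 624, against 6.63% and 16.6% of all tested gene-end regions. With offsets that follow the mean level, 77 were higher and 131 lower there. In gene bodies 28 were higher and 23 lower, 15.9% and 13.1% of 176, against 10.7% and 8.06%. Between genes 12 were higher and 20 lower, 15.8% and 26.3% of 76, against 9.11% and 9.48%. Regions under 1500 bp that held at least 43.0 CPM, and so were more open per kb (median 65.2 CPM), were higher at 2.75% and lower at 31.0% of gene ends, higher at 28.3% and lower at 15.4% in gene bodies, and higher at 42.0% and lower at 7.83% between genes. The balance of the broad regions turned with single libraries in the smaller classes. In gene bodies there were 20 gains and 27 losses without day 21 replicate 3 and 23 of each without day 7 replicate 1, and between genes 13 gains and 12 losses without day 7 replicate 3. No test of these differences between shares was made. The share of a library's counts that fell in broad regions was 4.30 ± 0.0621% at day 7 and 4.19 ± 0.0399% at day 21 (exact two-sided permutation test, p = 0.0571, adjusted p = 0.114 over 4 shares). For broad regions at gene ends the share was 3.17 ± 0.0532% and 3.06 ± 0.0249%, with no overlap between days (exact permutation p = 0.0286, the smallest that 4 against 4 libraries can give, and adjusted p = 0.114). That difference of −0.11 percentage points turned to 0.0190 with 2000 bp as the least width and was −0.525 with 1200 bp (exact permutation adjusted p = 0.0381). The shares in gene bodies (0.785 and 0.786%) and between genes (0.319 and 0.325%) had adjusted p = 0.83 and 0.114 by the same exact test.

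Broad promoters that passed the threshold moved by small amounts, and mostly down. Over a listed start 45 of 556 were higher and 130 lower (8.09% and 23.4%), against 4.33% and 23.2% of all tested regions over a start, and none changed by 2-fold. Where a broad region covered the starts of 2 or more genes, 4 of 65 were higher and 30 lower (46.2%), against 32.6% of all tested regions of that kind. With the start of 1 gene, 41 of 491 were higher and 100 lower (20.4%, against 22.4%). Examples of shared promoters, chosen after their values were seen, are Zfp664 with Ccdc92 (34.4 ± 4.44 CPM at day 7 and 23.3 ± 1.36 at day 21, −0.56 ± 0.09, edgeR adjusted p = 1.45e-06), and that of Cct5, a subunit of the chaperonin that folds actin and tubulin, with Atpsckmt (44.3 ± 2.06 and 33.3 ± 2.27 CPM, −0.41 ± 0.08, edgeR adjusted p = 3.14e-05), both of which fell. The promoter shared by Bivm and Poglut2 rose by 0.34 ± 0.07, with 47.7 ± 2.70 CPM at day 7 and 60.5 ± 2.96 at day 21 (edgeR adjusted p = 1.13e-04).

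Tox2, whose window is printed above, had the largest loss over a listed start. The region (chr2:163202356-163203949) held 20.8, 18.9, 18.7 and 19.2 CPM in the day 7 libraries and 12.4, 9.14, 9.96 and 8.97 in those of day 21 (replicates 1 to 4). Every day 21 library was below every day 7 library, and the log2 fold change was −0.95 ± 0.12 (edgeR adjusted p = 2.22e-09). The Foxp4 region (chr17:47923371-47925649) fell from 29.0 ± 2.03 to 16.8 ± 1.53 CPM (−0.79 ± 0.09, edgeR adjusted p = 9.64e-10), again with no overlap. Both were named from losses with no overlap between days, so that feature was set by the choice. At any region named for the size of its change, here and below, a lack of overlap is not separate support. Cabcoco1 fell by 0.66 ± 0.12 on the log2 scale and the promoter of Maz, a zinc finger transcription factor, which also touches an end of the kinesin gene Kif22, fell by 0.60 ± 0.07, from 62.7 ± 5.17 to 41.3 ± 3.08 CPM. The Jag2 promoter region, named after its values were seen, rose from 17.2 ± 2.79 to 26.8 ± 2.84 CPM (0.62 ± 0.10, edgeR adjusted p = 2.36e-06). Both the zinc finger gene Zfp777 (0.57 ± 0.09) and the lectin-like receptor gene Klrg2 (0.50 ± 0.09) rose over their starts, from 20.1 and 20.3 to 30.0 and 28.7 CPM.

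None of the 10 gains of 2-fold or more contained a listed start, but for 3 of them (Cd74, H2-Ab1 and Hspa8) the promoter table has no entry that could have been found. 9 of the 10 had no overlap between days. 6 of them lay at or past the 3′ end of a gene: Atf3, Fosb, Dnajb13, Fos, Hnrnpa2b1 and Hsph1. 3 lay near ends of Cd74 and Tcof1, of H2-Ab1 and of Hspa8. The last lay in the body of Cep85, a centrosomal protein gene, at low counts (2.15 ± 0.703 to 4.65 ± 0.498 CPM, 1.16 ± 0.23, edgeR adjusted p = 1.36e-04).

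Atf3, which encodes a transcription factor of the ATF/CREB family that many stresses induce, had the largest gain of any broad region, at chr1:191167091-191168957, from 1339 to 3205 bp past the end of the gene. The 4 day 7 libraries held 9.47, 8.29, 11.1 and 13.4 CPM and the 4 day 21 libraries 84.7, 112, 108 and 76.3. The lowest day 21 library was thus far above the highest of day 7, a difference of 3.14 ± 0.10 on the log2 scale or 8.82-fold (edgeR adjusted p = 1.37e-36). All 5 other tested regions within 5000 bp of it rose as well, by 1.84 to 3.15.

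Fos and Fosb encode subunits of AP-1, a transcription factor switched on within minutes of many stimuli. The Fosb region (chr7:19301182-19303354) starts 658 bp inside the gene and runs to 1514 bp past its end. It held 19.9, 22.3, 22.4 and 26.4 CPM at day 7 and 67.5, 106, 101 and 78.4 at day 21, with no overlap (1.95 ± 0.09, 3.85-fold, edgeR adjusted p = 1.61e-27). The Fos region (chr12:85477249-85479120) runs from 25 bp inside to 1846 bp past the end. It held 31.6, 36.0, 35.8 and 45.5 CPM at day 7 and 119, 129, 134 and 106 at day 21, again apart (1.70 ± 0.07, 3.26-fold, edgeR adjusted p = 3.77e-29). The remaining broad regions among 32 AP-1 and immediate-early genes, at the starts of Batf3 (−0.06 ± 0.08) and Rhob (0.04 ± 0.06), did not pass, so that 2 of 4 rose and 0 fell. Over all 116 tested regions at the ends or in the bodies of these genes 36 were higher (31.0%) and 18 lower (15.5%), against 9.5% and 9.86% of all tested regions; the Atf3 region, which lies between genes, is not among them.

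Dnajb13, a J-domain protein of sperm flagella, had a region (chr7:100502306-100504440) from 1429 bp inside the gene to 705 bp past its end that rose from 17.7 ± 1.37 to 61.6 ± 10.1 CPM (1.80 ± 0.09, edgeR adjusted p = 5.96e-26). At the end of Hnrnpa2b1, an RNA-binding protein gene, where Nfe2l3 also has an end within the window, the region (chr6:51458927-51460522) rose from 6.02 ± 1.01 to 14.6 ± 2.72 CPM (1.27 ± 0.15, edgeR adjusted p = 4.69e-10). In both, the days did not overlap. The 189 bp region over the listed start of Dnajb13 held only 0.708 ± 0.635 CPM at day 7 and 0.973 ± 0.418 at day 21. It did not pass (0.37 ± 0.50, edgeR adjusted p = 0.672). Whether the gain at its end belongs to Dnajb13 was not tested. Hsph1, a cytosolic heat shock chaperone, was less even. Its region (chr5:149614822-149616458), from 385 to 2021 bp past the end, held 5.73, 7.44, 7.00 and 4.78 CPM at day 7 and 10.9, 7.10, 8.43 and 23.3 at day 21. The days overlapped, and day 21 replicate 4 was far above the rest (1.06 ± 0.20, edgeR adjusted p = 4.03e-05). Without that library the difference was 0.51 (edgeR adjusted p = 0.0458), and DESeq2's Wald test with all libraries gave an adjusted p of 0.0856.

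**Figure D3:**
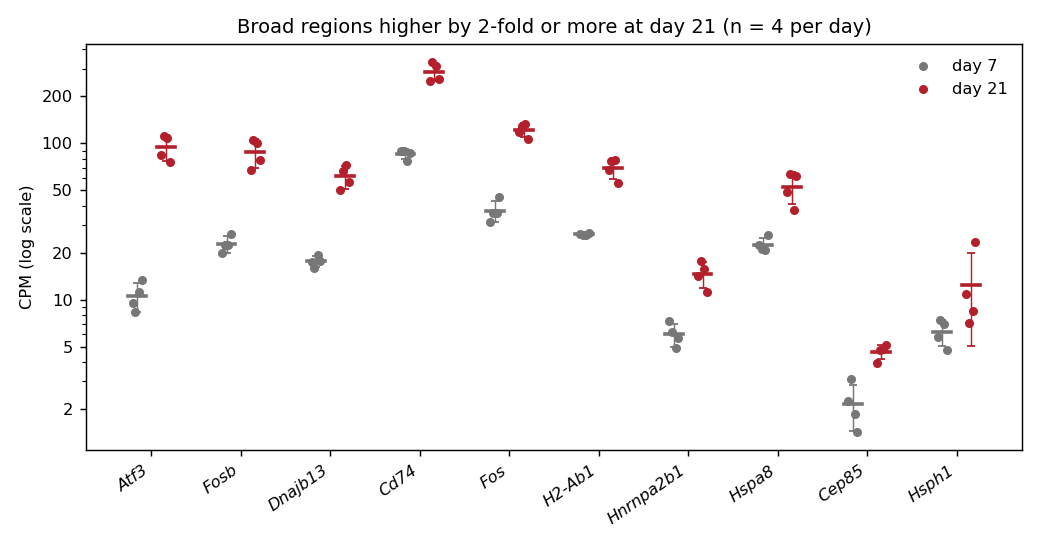
CPM (log scale) of the 10 broad regions that rose by 2-fold or more, with 1 point per library, a line at the mean and bars of ± 1 SD (n = 4 per day). Day 21 points lie above all day 7 points in every region but Hsph1, where 7.10 CPM at day 21 falls below 7.44 CPM at day 7.

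Heat shock and ubiquitin genes had broad regions at both kinds of end. Ubb, a polyubiquitin gene, had a region (chr11:62554025-62555662) 812 to 2449 bp past its end that held 11.6, 11.05, 9.61 and 12.1 CPM at day 7 and 17.4, 27.0, 18.2 and 25.9 at day 21. No library of day 21 reached down to those of day 7 (1.00 ± 0.12, edgeR adjusted p = 1.84e-09). The region near Hspa8, the constitutive cytosolic Hsp70 chaperone (chr9:40806381-40808473, 1179 bp from an end of the gene), rose from 22.5 ± 2.32 to 53.0 ± 12.3 CPM (1.23 ± 0.10, edgeR adjusted p = 6.41e-16). At the end of Hspa1a, a stress-inducible Hsp70 gene, a 2062 bp region ranged from 18.0 to 64.3 CPM at day 21 and from 24.3 to 39.6 at day 7 and did not pass (0.30 ± 0.14, edgeR adjusted p = 0.132). Hspa1a has a near-identical neighbour, so its reads may have been split or lost in mapping.

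Of 20 heat shock and unfolded protein response genes, 9 had a broad region at an end, in 8 regions. 1 rose (Hsph1), 2 fell and 5 did not pass, with a median of −0.05 over the 8, beside −0.05 over all 877 broad regions, of which 10.9% rose and 21.3% fell. Those that fell were at Hsp90ab1, the constitutive cytosolic Hsp90 (79.9 ± 4.85 to 64.8 ± 5.16 CPM, −0.30 ± 0.06, edgeR adjusted p = 3.69e-04), and over the shared start of the mitochondrial chaperonin genes Hspd1 and Hspe1 (92.9 ± 4.87 to 82.6 ± 3.07 CPM, −0.17 ± 0.06, edgeR adjusted p = 0.0303). The 1 tested region within 5000 bp of the broad Hsp90ab1 region rose by 1.29. Over the starts of Dnaja1, Hsp90b1, Herpud1 and Xbp1 the differences lay between −0.07 and 0.01. Over all 73 tested regions at the ends or in the bodies of these genes, which leaves out the one near Hspa8, 13 were higher (17.8%) and 4 lower (5.48%), against 9.5% and 9.86% of all tested regions.

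The 2 ends of a gene could be compared where the promoter table gives the strand. 13 broad regions began no more than 2500 bp past a 3′ end with no listed start near them, a class drawn up after the values were seen. 8 of them were higher (61.5%) and 3 lower (1 lower without day 7 replicate 3 or without day 21 replicate 2), with 6 gains of 2-fold and a median of 1.00. With a window of 5000 bp in place of 2500 there were 17 regions, 10 higher and 4 lower, with a median of 0.35, and with 1200 bp as the least width 36 regions, 17 higher and 5 lower, with a median of 0.26. Of all 3251 tested regions in that position 11.4% were higher, 7.32% lower and 2.92% higher by 2-fold, and their median was 0.03. Besides those above, LOC108167320 rose (0.71 ± 0.13). Btbd16 (0.22 ± 0.09) did not pass, and 1700042G07Rik (−0.33 ± 0.12), the Schlafen gene Slfn14 (−0.40 ± 0.13) and Arhgap45 (−0.42 ± 0.09) fell.

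For 8 of these genes the region over the listed start held at least 5 CPM. At Fosb the start region held 44.9 ± 5.19 CPM at day 7 and 45.9 ± 2.62 at day 21 (0.03 ± 0.07, edgeR adjusted p = 0.825), while the end region went up by 1.95. At Fos the start rose by 0.20 ± 0.06 (edgeR adjusted p = 0.0115) and at Atf3 by 0.35 ± 0.06 (edgeR adjusted p = 6.27e-06), each far less than the region past the end. At Ubb the ends moved in opposite directions, with a start that fell from 58.6 ± 3.79 to 39.8 ± 2.96 CPM (−0.56 ± 0.07, edgeR adjusted p = 7.63e-09). At Hnrnpa2b1 the start lies in a broad region of 1925 bp that also covers the start of Cbx3, so its value belongs to both genes, and that region fell by 0.22 ± 0.06 (edgeR adjusted p = 0.00934). The start region at Hspa1a likewise covers the starts of 2 genes. The starts of Hsph1 (−0.03 ± 0.06), Hspa1a (−0.22 ± 0.08) and Arhgap45 (−0.13 ± 0.08) did not pass.

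The ratio of the 2 ends within a library does not depend on the scaling of libraries. The log2 ratio of the region past the end to the region over the start went from −2.93 ± 0.30 to −0.09 ± 0.22 at Atf3, from −0.98 ± 0.09 to 0.92 ± 0.22 at Fosb and from −0.88 ± 0.19 to 0.64 ± 0.11 at Fos. At Fos and Fosb the start region thus held more counts at day 7 and the region past the end more at day 21. The regions past the end are wider, with 1871 against 1113 bp at Fos and 2172 against 717 bp at Fosb. The ratios therefore compare counts and do not tell which end was more open per kb. The ratio went from −3.64 ± 0.25 to −2.14 ± 0.19 at Hnrnpa2b1 and from −2.40 ± 0.18 to −0.87 ± 0.36 at Ubb. In these 5 of 8 genes every day 21 library had a higher ratio than every day 7 library. At Hsph1, Hspa1a and Arhgap45 the ratios of the days differed by 0.89, 0.40 and −0.29 and were not all apart in that direction. These ratios describe genes picked for their gains and were not tested.

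**Figure D4:**
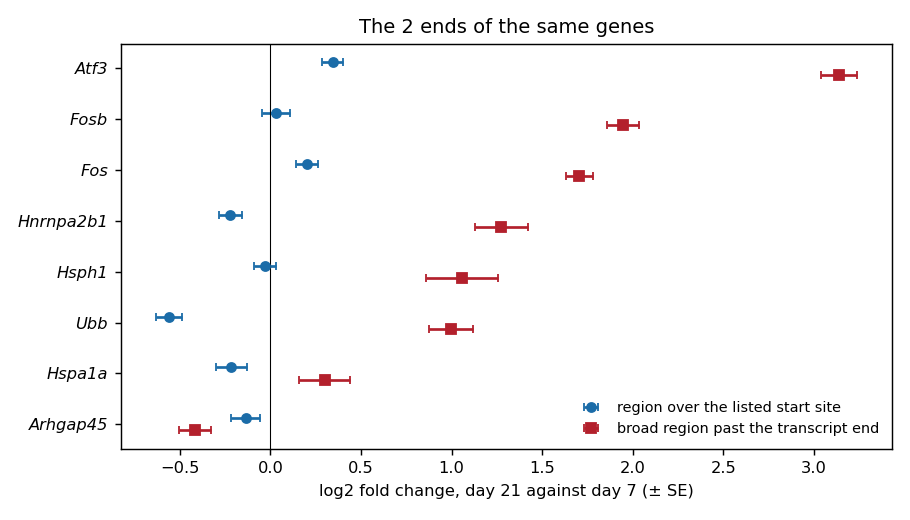
log2 fold changes of day 21 against day 7 (± SE, horizontal axis) for 8 genes (vertical axis), with a circle for the region over the listed start and a square for the broad region past the transcript end. The squares run from −0.42 at Arhgap45 to 3.14 at Atf3, while the circles stay between −0.56 and 0.35.

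Antigen presentation genes of MHC class II were among the largest gains. Cd74, the invariant chain that escorts class II molecules to the endosome, overlaps the second widest broad region (3152 bp, chr18:60811156-60814308), which also touches an end of the ribosome biogenesis gene Tcof1. It held 89.9, 89.7, 77.4 and 86.7 CPM at day 7 and 252, 330, 312 and 259 at day 21, with a wide gap between days (1.75 ± 0.06, edgeR adjusted p = 6.96e-35). The region 416 bp from an end of H2-Ab1, the beta chain of the class II molecule I-A (chr17:34269834-34271488), held 26.2, 25.9, 26.1 and 26.8 CPM at day 7 and 67.6, 76.7, 78.6 and 55.7 at day 21. The day 7 libraries lay within 1 CPM of each other and all day 21 libraries were above them (1.40 ± 0.08, edgeR adjusted p = 1.41e-22). Of 18 class II genes these 2 had a broad region, and over all 79 tested regions at or in genes of the list 29 were higher (36.7%) and 10 lower (12.7%), against 9.5% and 9.86% of all tested regions. Of 15 class I genes Psmb10, an immunoproteasome subunit, had one, and it was lower at day 21 (37.5 ± 1.30 and 30.6 ± 1.22 CPM, −0.30 ± 0.08, edgeR adjusted p = 0.00326). Over all 51 tested regions at or in the class I genes 3 were higher (5.88%) and 8 lower (15.7%), beside the same 9.5% and 9.86%.

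Ccr7, the receptor that draws mature dendritic cells to lymph nodes, had the largest loss of a broad region at a gene end (chr11:99142386-99144134, 65 bp from an end). The day 7 libraries held 15.9, 16.7, 16.6 and 17.0 CPM and the day 21 libraries 8.86, 4.51, 6.66 and 6.83. The highest day 21 library was well below the lowest of day 7 (−1.31 ± 0.14, or 2.48-fold lower, edgeR adjusted p = 2.06e-11), and the neighbouring tested region within 5000 bp fell by 1.29. The other broad regions of 30 maturation and migration genes, at the costimulatory receptor gene Cd40 (45.3 ± 1.64 and 40.4 ± 5.02 CPM, −0.16 ± 0.08) and over the start of the NF-kB subunit gene Nfkb2 (93.0 ± 2.39 and 92.0 ± 7.63 CPM, −0.02 ± 0.06), did not pass. Cd40 passed as lower without day 21 replicate 3 (−0.24, edgeR adjusted p = 0.0260). Over all 201 tested regions at or in genes of that list 19 were higher (9.45%, close to the 9.5% of all tested regions) and 46 lower (22.9%, against 9.86%).

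Of 24 cDC1 identity genes 5 had a broad region, of which 1 rose, 1 fell and 3 did not pass. The region at an end of Cd24a, a surface marker of cDC1s, rose from 43.0 ± 2.68 to 52.3 ± 4.32 CPM (0.28 ± 0.07, edgeR adjusted p = 0.00258). That in the body of Zbtb46, a transcription factor of conventional dendritic cells, fell from 60.8 ± 8.80 to 49.5 ± 1.79 CPM (−0.31 ± 0.07, edgeR adjusted p = 0.00127). Batf3 (−0.06), the double-stranded RNA receptor gene Tlr3 (0.16 ± 0.07) and Zeb1 (−0.05 ± 0.08) did not pass. Over all 378 tested regions at or in genes of that list 75 were higher (19.8%) and 42 lower (11.1%). Of all tested regions 9.5% were higher and 9.86% lower. Among genes taken as housekeeping, the promoter of the elongation factor gene Eef1a1 fell from 75.3 ± 2.24 to 59.3 ± 1.72 CPM (−0.34 ± 0.06, edgeR adjusted p = 2.31e-05) while the region past Ubb rose. Over all 60 tested regions at or in genes of that housekeeping list 4 were higher (6.67%) and 23 lower (38.3%). Of 10 T and NK cell marker genes Lck had a broad region, in its body (14.0 ± 1.68 and 12.4 ± 1.31 CPM, −0.18 ± 0.12, edgeR adjusted p = 0.315). The B cell, macrophage, neutrophil, plasmacytoid, melanoma, stromal and oxidative phosphorylation lists had 0 broad regions.

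In gene bodies Ncoa7, a nuclear receptor coactivator, had the largest loss of all broad regions, at chr10:30692890-30694423 and 47.3 kb from an end of the gene. It held 10.7, 10.9, 9.61 and 10.1 CPM at day 7 and 3.87, 4.09, 3.60 and 4.27 at day 21. The libraries of each day lay close together and far from those of the other (−1.38 ± 0.16, 2.60-fold lower, edgeR adjusted p = 6.02e-10). The regions over the listed starts of Ncoa7 differed by 0.01 ± 0.08 and −0.08 ± 0.07 and did not pass. Smaller losses in gene bodies were at the zinc finger gene Zfp821 over its start (−0.48 ± 0.08), at Slc9a3r1, a scaffold under the plasma membrane (−0.42 ± 0.11), and at Zfp277 (−0.38 ± 0.09). Gains were at Tex9 (24.5 ± 2.66 to 41.0 ± 5.18 CPM, 0.73 ± 0.09) and at the acyltransferase gene Lpgat1 (12.6 ± 1.49 to 20.1 ± 1.17 CPM, 0.67 ± 0.11). The broad region over the start of Lpgat1 itself did not pass (0.05 ± 0.09, edgeR adjusted p = 0.779). Gene-body regions without a listed start had 19 gains and 10 losses of 84 (22.6% and 11.9%), and those with one 9 and 13 of 92 (9.78% and 14.1%). Of all tested gene-body regions, with or without a listed start, 10.7% were higher and 8.06% lower. Some of the 84 may cover starts of genes that the promoter table does not list.

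Between genes, regions are named by the nearest gene end, which need not be their target. Losses lay 14.3 kb from the zinc transporter gene Slc30a4 (15.0 ± 1.14 to 8.89 ± 1.05 CPM, −0.75 ± 0.13, edgeR adjusted p = 5.45e-06) and 117 kb from Dusp4, a phosphatase that turns off MAP kinases (13.9 ± 1.63 to 8.37 ± 1.50 CPM, −0.72 ± 0.13, edgeR adjusted p = 3.76e-05). Others lay 8.11 kb from the adhesion gene Ninj1 (−0.64 ± 0.14) and 6.32 kb from Spen, a transcriptional corepressor (77.4 ± 2.38 to 57.5 ± 2.19 CPM, −0.43 ± 0.06). The region over the start of Spen fell by 0.50 ± 0.07, whereas those of Slc30a4 (0.05 ± 0.10) and Ninj1 (0.04 ± 0.08) did not pass. Gains lay 10.7 kb from Ezr, which links actin to the membrane (36.4 ± 2.89 to 51.2 ± 4.69 CPM, 0.49 ± 0.08), 27.1 kb from Dhrs2 (0.49 ± 0.11) and 82.2 kb from Zfp648 (0.37 ± 0.09). All 7 were named from those with no overlap between days, so that feature was set by the choice.

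**Figure D5:**
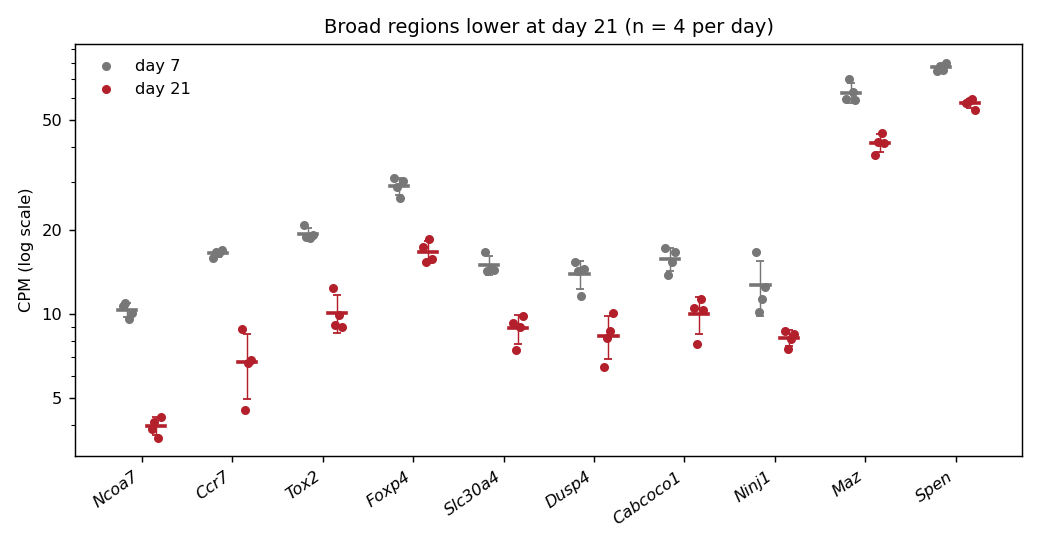
CPM (log scale) of 10 broad regions that were lower at day 21, with 1 point per library, a line at the mean and bars of ± 1 SD (n = 4 per day). The 10 were taken from regions with no overlap between days, and means run from 10.3 to 3.96 CPM at Ncoa7, 16.6 to 6.72 at Ccr7 and 62.7 to 41.3 at Maz.

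Apart from the Cd74 region, the 5 widest and the 5 most open broad regions changed little. The widest, 3427 bp at Gm20783 and LOC108167694, was also the most open, with 276 ± 7.49 CPM at day 7 and 270 ± 14.4 at day 21 (−0.03 ± 0.05). Crlf2, part of the receptor for thymic stromal lymphopoietin, had 2927 bp over its start (264 ± 18.9 and 268 ± 13.0 CPM, 0.02 ± 0.05) and Map3k1, a MAP kinase kinase kinase, 2764 bp over a start (78.4 ± 5.63 and 86.1 ± 8.47 CPM, 0.13 ± 0.06). Neither passed, and nor did the starts of Sp1 (220 ± 7.10 and 215 ± 11.2 CPM, −0.04 ± 0.05) and Sp4 (203 ± 11.3 and 189 ± 8.06 CPM, −0.10 ± 0.05). With offsets that follow the mean level, Crlf2 (0.22), Gm20783 (0.17) and Sp1 (0.14) passed as higher, so no direction is given for them. Map3k1 passed with those offsets (0.21) and without day 21 replicate 1 (0.19, edgeR adjusted p = 0.0395). The region on the unplaced contig fell from 207 ± 14.8 to 184 ± 6.20 CPM (−0.17 ± 0.05, edgeR adjusted p = 0.0111), but not with those offsets (0.0046) or without day 7 replicate 2 (edgeR adjusted p = 0.0924). Nr3c1, the glucocorticoid receptor gene, had 2703 bp in its body that fell by 0.19 ± 0.06 (edgeR adjusted p = 0.0116), and that call was lost with the same offsets (−0.08, edgeR adjusted p = 0.245), without day 7 replicate 3 (0.0535) and without day 21 replicate 1 (0.0688). At the threshold itself, Bin1, Fmr1 and Lmo4 were 1500 bp wide (−0.22, −0.15 and 0.01) and Paxbp1, Snx25 and Mef2a 1498 or 1499 bp (−0.17, −0.29 and −0.03).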

How the data were processed

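The authors deposited raw counts per region, whole numbers and not normalized, with 1 column for each of 8 ATAC-seq libraries over 1 shared set of 128057 regions. The tools named in the submitters' processing notes are MACS2 2.1.0.20150603, bedtools, SAMtools, Picard 1.65 and cutadapt 1.9, and the builds mm10 and GRCm38. The aligner, the read filters, the merging of peaks, the counting base of the coordinates, whether reads or insertions were counted and any shift for the transposase are not given in the sources used here. A wide region collects more counts, and its width depends on that merging.

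Groups came from the labels. Regions with filterByExpr support (121865) were fitted with edgeR 4.0.16 in R 4.3.3: TMM factors (0.978 to 1.01), glmQLFit with the day as its only term, glmQLFTest, and Benjamini-Hochberg adjustment over all tested regions. An SE is the log2 fold change divided by the square root of F. Library shares were compared by exact permutation over 70 relabelings (SciPy 1.17.1).

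Classes used the RefSeq gene table of GRCm38.p6 (21887 protein-coding genes), which gives no strand, exons or untranslated regions. Strand and starts came from the RefSeq promoter table (17492 genes), in which Cd74, H2-Ab1, Ccr7, Hspa8, Hsp90ab1 and other genes have no entry. "Gene end" therefore covers both ends. A region without a listed start may still cover the start of a gene with no entry, so counts of regions over listed starts are lower bounds. Broad regions without a listed start also came in long runs along the genome, such as the run that holds Nr3c1 and Cd74. Splits by listed start may therefore partly be splits by place. In each class the 5 gains and 5 losses of largest size with no overlap between days were named, with the 5 widest regions, the 5 of highest mean CPM and members of 15 gene lists. A named region left out of the text is kept in every count over regions. The members and lists were chosen with earlier results of these data known. On simulated counts for the broad regions (200 changed among 121865 regions), 32.4% of 1.25-fold, 93.9% of 1.5-fold and 100% of 2-fold changes were recovered and 7 unchanged regions were called. Far more regions were called in the data than were changed there, so these shares do not carry over to it. Alternatives were other scalings (DESeq2 1.42.0 size factors, library totals, trended offsets), no filter, thinned counts, DESeq2's Wald test, a replicate block, other widths and windows, and each library left out.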

Additional observations from a re-analysis of the deposited data

Results flagged for a closer look

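4 of 100 groups of 4 libraries, among the reported regions and the library shares, held a library far from the other 3 by Dixon's test at the 95% level. Chance alone flags about 1 group in 20, so this many is near what chance gives. The Cd24a region held 45.8 CPM in day 21 replicate 1 and 53.8 to 55.1 in the other day 21 libraries. Day 21 replicate 4 was low at both Gm20783 with LOC108167694 (248 CPM, others 276 to 277) and the Sp1 promoter (198 CPM, others 219 to 221). The Slc9a3r1 region held 20.3 CPM in day 7 replicate 1 and 18.0 to 18.2 in the others.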

How the results depend on the processing

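The number of higher and lower broad regions in each class stayed within 1.5 times its value under every scaling, the filter, thinned counts and DESeq2's Wald test. Trended offsets narrowed the gap between losses and gains, with 129 higher and 175 lower in place of 96 and 187. The median log2 fold change of the broad regions was then −0.0242 in place of −0.0490. Leaving out 1 library at a time gave 73 to 93 higher and 148 to 210 lower, 40 to 53 and 118 to 161 at gene ends, 20 to 29 and 16 to 27 in gene bodies, 10 to 15 and 12 to 21 between genes (12 lower without day 7 replicate 3) and 8 to 9 and 1 to 3 past a transcript end (1 lower without day 7 replicate 3 or day 21 replicate 2). The differences in library shares then ran from −0.134 to −0.0883 points over all classes, −0.135 to −0.0934 at gene ends, −0.00398 to 0.00409 in gene bodies (below 0 without day 7 replicate 1, −0.00353, or day 21 replicate 3) and 0.00517 to 0.00846 between genes. With 1200 bp as the width there were 311 higher and 675 lower, 129 and 510 at gene ends, 114 and 92 in gene bodies, 68 and 70 between genes and 17 and 5 past an end, and the share differences were −0.494, −0.525 at gene ends and 0.0310 between genes (exact permutation adjusted p = 0.0381 each). With 2000 bp there were 17 and 19, 12 and 14, 3 and 2, 2 and 3, and 2 and 1, with share differences that changed sign, to 0.0199 over all classes, 0.0190 at gene ends and −0.000627 in gene bodies. A window of 1000 bp past the transcript end left 0 lower, one of 5000 bp gave 10 higher and 4 lower of 17 with a median of 0.35, and gene-end windows of 2000 bp turned the share difference between genes to −0.00379. The widths and windows hold different numbers of regions. The balance of gains and losses at gene ends and the sign of share differences moved with the width as well, and why was not tested.

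Among the named regions, 690 comparisons of a region with an alternative kept direction and side of the threshold, 5 lost the call, 4 gained one and 6 changed sign. Trended offsets gave Gm20783 with LOC108167694 0.166, Sp1 0.140, Sp4 0.0720 and the contig 0.00460. Leaving out 1 library moved Crlf2 between −0.00269 (without day 7 replicate 4) and 0.0747, and Gm20783 with LOC108167694 between −0.0596 and 0.00117 (without day 21 replicate 4). The cause was not tested. Whether replicate numbers pair libraries could not be settled from the counts. Deviations of same-numbered libraries correlated at 0.00411 to 0.00975 and those of the other pairs at −0.0112 to 0.0133. Of the 4 numbers, 2 correlated best with their own. A replicate block gave 106 higher and 212 lower. On simulated counts for day 21 against day 7, 32.4% of 1.25-fold changes in broad regions were recovered, so small changes can be missed. Thinned counts gave 82 higher and 193 lower.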

Other observations

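Further broad regions, picked after their values were seen and sharing no fixed list, passed the threshold with no overlap between days unless stated. At an end of Cebpd, a transcription factor of myeloid and acute-phase responses, and of Spidr the level was 17.8 ± 0.684 CPM at day 7 and 28.5 ± 3.00 at day 21 (0.69 ± 0.09, edgeR adjusted p = 4.77e-08). Over the start of Polg2, a mitochondrial DNA polymerase subunit, at an end of the RNA helicase gene Ddx5, it was 59.6 ± 3.84 and 89.3 ± 7.07 CPM (0.58 ± 0.06, edgeR adjusted p = 1.08e-10). The start of Setd7, a lysine methyltransferase, rose by 0.40 ± 0.06. Losses stood at an end of the histone acetyltransferase gene Kat6a (−0.55 ± 0.07, edgeR adjusted p = 5.72e-09), over the start of the transcription factor gene Sox4 (−0.57 ± 0.12) and where Samd1 and the protein kinase A gene Prkaca have ends (−0.50 ± 0.07). The region 7.13 kb from an end of the chemokine gene Ccl3 fell by 0.58 ± 0.13 (edgeR adjusted p = 9.73e-04), with days that overlapped.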
